A study of Mus musculus with 8 samples.

Results

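The late cornified envelope genes (Lce) and the small proline-rich genes (Sprr) encode the short proteins from which keratinocytes build the cornified envelope of the outer epidermis. The members were taken by name, as every gene of the expression table whose symbol reads Lce or Sprr followed by a digit. That gave 38 of the 34745 genes, namely 14 Lce1, 6 Lce3, 1 Lce6, 2 Sprr1, 13 Sprr2, 1 Sprr3 and 1 Sprr4 gene. All 38 lie on mouse chromosome 3 between 92215799 and 93019060 (mm10), a stretch of 803 kb within the epidermal differentiation complex, and their coordinates equal those of GENCODE release M21.

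RNA sequencing measured whole skin lesions of 8 mice aged 16 weeks and labelled male, 4 in a group labelled NcstnΔKC and 4 in a group labelled normal, and asked which genes differ between them. The NcstnΔKC mice carried Ncstn flx/flx and Krt14 CreER+/-, a tamoxifen-dependent recombinase expressed from a promoter of basal keratinocytes, and at 8 weeks of age began to receive tamoxifen by gavage (20 mg/kg, daily over the first 5 days, later at intervals of 10 days). The product of Ncstn, nicastrin, is part of γ-secretase, a protease of the membrane that cuts Notch receptors among others. The protocol gives the controls the same alleles and corn oil in place of tamoxifen, whereas their genotype label reads wildtype, so the alleles of the normal mice are not certain and tamoxifen itself was given to 1 group alone. The labels do not say in so many words that each library came from its own mouse, and p-values measure the spread between these samples.

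During cornification the envelope is laid down beneath the plasma membrane and crosslinked by transglutaminases, with Sprr proteins acting as bridges between larger proteins such as loricrin, and with Lce proteins joining late. Lce1 genes are known as the set expressed in undisturbed epidermis, and Lce3 genes as a set induced where the barrier is injured or inflamed, as in psoriasis. Sprr1 and Sprr2 genes are likewise known to rise in stressed and wounded squamous epithelium, and Sprr3 is best known from the lining of the mouth and oesophagus.

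Total counts ran from 5835422 to 8663753 in the normal libraries and from 11881506 to 12893174 in the NcstnΔKC libraries, with levels given as CPM (a gene's count relative to the scaled library size). Ncstn, the targeted gene, was at 60.7, 61.9, 61.3 and 58.4 CPM in normal replicates 1 to 4 and 66.8, 50.2, 57.8 and 56.1 CPM in NcstnΔKC replicates 1 to 4, a log2 fold change of -0.069 ± 0.12 (SE; edgeR, adjusted p = 0.663). It was called lower only with scaling to basal keratinocyte genes (-0.73, adjusted p = 0.0147), among the scalings by TMM, total counts and those genes, so in whole skin it does not check the labels, and NcstnΔKC below means the libraries so labelled. Xist, which marks female cells, had 22304 to 37109 counts in replicates 3 and 4 of both groups and 4 to 9 in the other 4 libraries, against the label male. Normal replicate 2 stood apart by 39139 CPM of inner root sheath and hair shaft markers (12 genes), against 36.8 to 477 in the other normal and 7.11 to 8.56 in the NcstnΔKC libraries. Basal keratinocyte markers (12 genes) summed to 8092 to 11414 CPM in normal and 13138 to 17009 in NcstnΔKC skin, and skeletal muscle markers (9 genes) to 6736 to 64342 against 617 to 5613. In bulk tissue a change in the number of cells of a type and a change in RNA per cell cannot be told apart, and the part of these markers in the results was not tested.

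The promoters of 6 genes are shown because they belong to genes whose levels differed most in pattern: Sprr2d and Sprr2h (Sprr2 genes with the same arrangement of motifs), Sprr1b and Sprr1a (a pair of which 1 was called), Lce3c (the Lce3 gene with the highest FPKM, a level per length) and Lce1m (the member that fell). Each is the 250 bases before the RefSeq start site (GRCm38.p6), written 5′ to 3′ on the gene's strand, and capitals mark the letters TGANTCA (AP-1), ATGCAAAT (the octamer) or TATAAA (the TATA box), in either orientation. They are Sprr2d at chr3:92338890-92339139, plus strand; Sprr2h at chr3:92385435-92385684, plus strand; Sprr1b at chr3:92438780-92439029, minus strand; Sprr1a at chr3:92485882-92486131, minus strand; Lce3c at chr3:92944236-92944485, plus strand; and Lce1m at chr3:93019062-93019311, minus strand.
Sprr2d: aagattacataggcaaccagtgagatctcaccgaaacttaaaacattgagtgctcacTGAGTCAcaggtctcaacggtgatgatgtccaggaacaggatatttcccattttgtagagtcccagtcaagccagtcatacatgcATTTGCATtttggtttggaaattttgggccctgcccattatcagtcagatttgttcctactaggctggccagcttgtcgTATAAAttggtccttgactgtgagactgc
Sprr2h: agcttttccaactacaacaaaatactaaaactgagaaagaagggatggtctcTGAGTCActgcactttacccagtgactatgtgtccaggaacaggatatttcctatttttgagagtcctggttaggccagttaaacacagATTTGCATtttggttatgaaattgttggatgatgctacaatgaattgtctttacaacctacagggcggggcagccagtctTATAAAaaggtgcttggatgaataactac
Sprr1b: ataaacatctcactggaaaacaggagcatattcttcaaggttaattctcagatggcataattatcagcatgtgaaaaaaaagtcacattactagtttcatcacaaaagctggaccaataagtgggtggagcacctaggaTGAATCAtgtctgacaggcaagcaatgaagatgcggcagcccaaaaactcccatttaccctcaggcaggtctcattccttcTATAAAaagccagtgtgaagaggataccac
Sprr1a: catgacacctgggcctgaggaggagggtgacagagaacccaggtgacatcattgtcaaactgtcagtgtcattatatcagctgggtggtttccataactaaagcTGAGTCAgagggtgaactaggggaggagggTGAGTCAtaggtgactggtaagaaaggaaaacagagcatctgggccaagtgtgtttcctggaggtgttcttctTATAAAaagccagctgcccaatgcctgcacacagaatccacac
Lce3c: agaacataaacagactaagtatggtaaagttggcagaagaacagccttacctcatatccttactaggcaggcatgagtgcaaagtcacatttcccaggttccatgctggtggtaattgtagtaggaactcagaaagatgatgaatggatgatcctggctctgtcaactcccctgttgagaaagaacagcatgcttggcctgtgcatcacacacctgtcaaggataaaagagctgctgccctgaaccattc
Lce1m: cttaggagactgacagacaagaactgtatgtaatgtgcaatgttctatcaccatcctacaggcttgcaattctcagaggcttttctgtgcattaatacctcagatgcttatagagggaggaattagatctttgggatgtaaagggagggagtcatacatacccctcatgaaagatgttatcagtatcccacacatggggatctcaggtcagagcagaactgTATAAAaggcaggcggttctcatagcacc

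RefSeq held a promoter for 34 of the 38 members. All 7 Sprr2 promoters outside the Sprr2a genes (Sprr2b, Sprr2d, Sprr2e, Sprr2f, Sprr2h, Sprr2i and Sprr2k) held an AP-1 match, an octamer and a TATA box in that order, the AP-1 match nearest the start beginning 182 to 198 bases before it, the octamer 108 to 112 and the TATA box 29. Sprr1b had its AP-1 match at 111 bases and its TATA box at 30, and Sprr1a had AP-1 matches at 146 and 116 bases and a TATA box at 43. None of the 19 Lce1 and Lce3 windows and none of the 3 Sprr2a windows held an AP-1 match. The RefSeq start was checked against the transcripts: its first bases lay in a GENCODE transcript of the gene for 30 of the 34, and not for Sprr2a2, Sprr2a3, Lce3f and Lce1m. The Sprr2a1 and Sprr2a2 windows are 1 and the same sequence. Some RefSeq starts lie inside the gene of the expression table, by 10 bases in Sprr1b, 14 in Sprr1a and 36 in Sprr2a1. In Sprr2b it was 85 and in Sprr2a2 34727 bases, so the windows searched and the distances given depend on the start used. Of all member promoters 9 of 34 (26.5%) had the AP-1 letters, against 6.75% of 32851 RefSeq promoters of the same length. The TATA box was in 14 (41.2%, against 12.4%) and the octamer in 7 (20.6%, against 1.601%). The TATA letters of Lce6a and Lce3e were in reverse orientation, 218 and 243 bases before the start. All 7 octamers and 7 of the 9 promoters with AP-1 letters were those of the 7 Sprr2 genes of like arrangement. These promoters are not independent of one another, so the shares cannot be read as those of 34 separate promoters. The letters TTCNNNGAA, a STAT motif, were in 2, Lce1l and Sprr2a3 (5.88%, against 7.02%). Both strands were searched, and no matches overlapped. A match describes these letters in this window and not the binding of a factor.

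**Figure D1:**
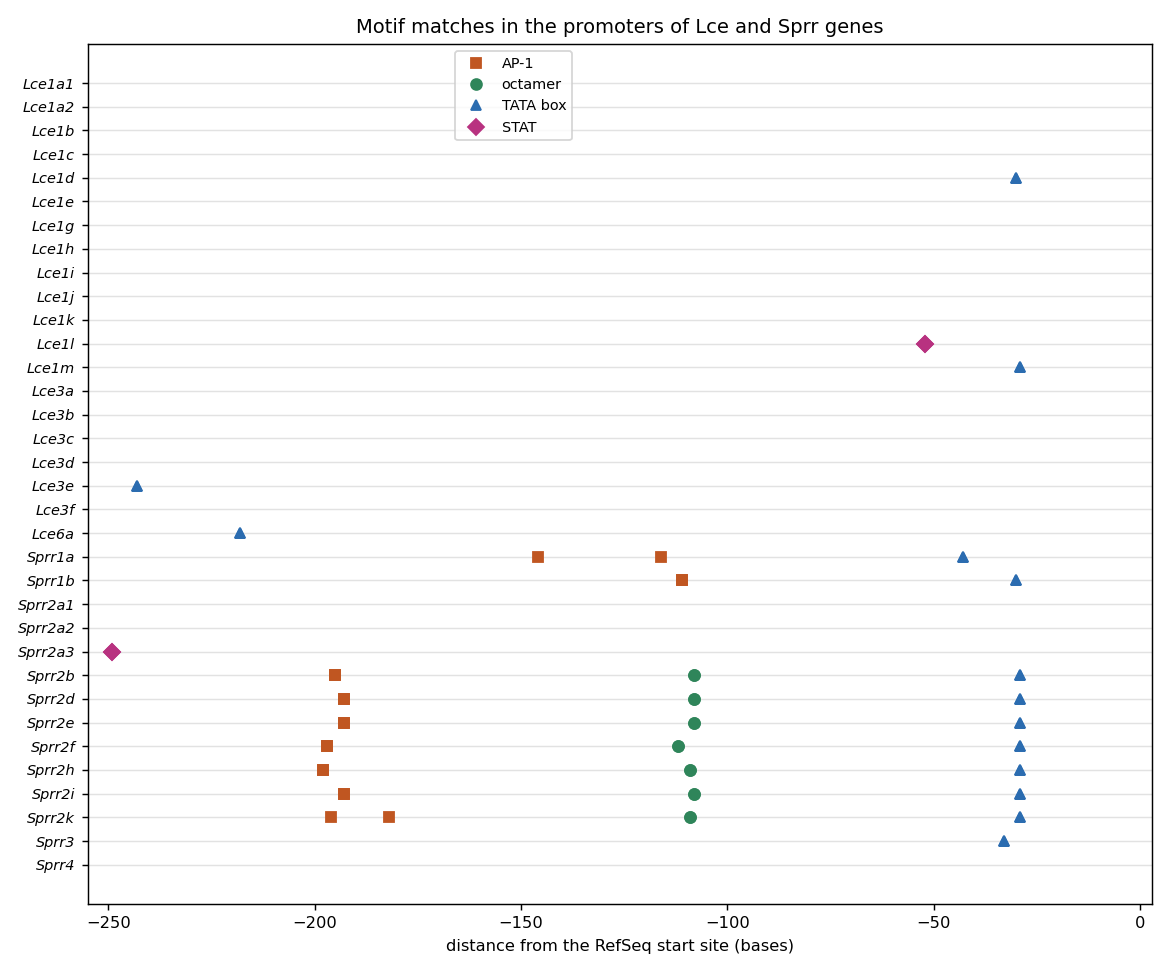
Places of motif matches in the 250 bases before the start site of 34 Lce and Sprr genes, with the distance of each match's first base from the RefSeq start on the horizontal axis (bases) and 1 line per gene. Squares are AP-1 matches, circles octamers, triangles TATA boxes and diamonds STAT matches, and the 7 Sprr2 genes from Sprr2b to Sprr2k show the same order of 3 motifs.

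Lce and Sprr transcripts were mostly far higher in NcstnΔKC skin, but the subfamilies differed in size of change and 1 Lce1 gene fell. Of the 38 members, 34 had enough counts to be tested among 15684 genes with edgeR's quasi-likelihood test. At a Benjamini-Hochberg adjusted p under 0.05 there were 26 called higher, 1 called lower and 7 not called. Over all genes tested 21.4% were called higher and 22.7% lower. The NcstnΔKC libraries lay above all normal libraries in 26 tested members, against 20.9% of all genes. The filter kept the same genes as a minimum of 1 CPM in 4 libraries. Lce3a, Lce3b, Lce3e, Lce3f, Sprr2a1, Sprr2a2, Sprr2e, Sprr2f, Sprr2g, Sprr2i and Sprr2j-ps were under 1 CPM in every normal library. They could be tested only through the 4 NcstnΔKC libraries, so their place above the normal libraries was fixed by the filter. All of them are among the 26 called higher and in the median that follows, and none could have been called lower. The median log2 fold change of the tested members was 3.79 (3.63 with genes at 0 normal counts set to their lower bound), beside -0.02 over all genes. With scaling to 12 basal keratinocyte genes, which moved that overall median to -0.69, 24 members were called higher and 2 lower, beside 749 higher and 7568 lower of all genes. With total counts the overall calls were 5323 higher and 2224 lower, and with FPKM 5344 and 2123, against 3360 and 3555 with TMM.

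By subfamily, 6 of 6 Lce3, 9 of 10 tested Sprr2, 9 of 14 Lce1 and 1 of 2 Sprr1 genes were called higher, against 21.4% of all genes. The only Lce6 gene was called higher too. These counts do not rank the subfamilies. Lce3a, Lce3b, Lce3e, Lce3f and all called Sprr2 genes but Sprr2a3 and Sprr2d were tested only through the NcstnΔKC libraries. Summed over its 14 genes, Lce1 was at 156, 123, 244 and 203 CPM in normal replicates 1 to 4 and 1208, 324, 395 and 382 CPM in NcstnΔKC replicates 1 to 4, a log2 ratio of the group means of 1.67. Lce3 was at 0.152, 6.45, 0.282 and 0.261 CPM against 336, 76.3, 70.02 and 56.3 CPM, a log2 ratio of 6.24. For these subfamilies the NcstnΔKC libraries all lay above the normal ones, and NcstnΔKC replicate 1 was far above its 3 companions. Sprr2 summed to 2.28, 23.6, 0.565 and 3.26 CPM against 310.0, 166, 196 and 243 CPM (log2 ratio 4.95), again without overlap. Sprr1 summed to 210.3, 941, 157 and 107 CPM against 798, 655, 433 and 444 CPM (log2 ratio 0.72), and here the groups overlapped, because normal replicate 2 was higher than every NcstnΔKC library. No test was made of these sums. Without normal replicate 2 the log2 ratios of Lce3, Sprr1 and Sprr2 were 9.18, 1.88 and 6.81, and without NcstnΔKC replicate 1 those of Lce1 and Lce3 were 1.02 and 5.24.

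**Figure D2:**
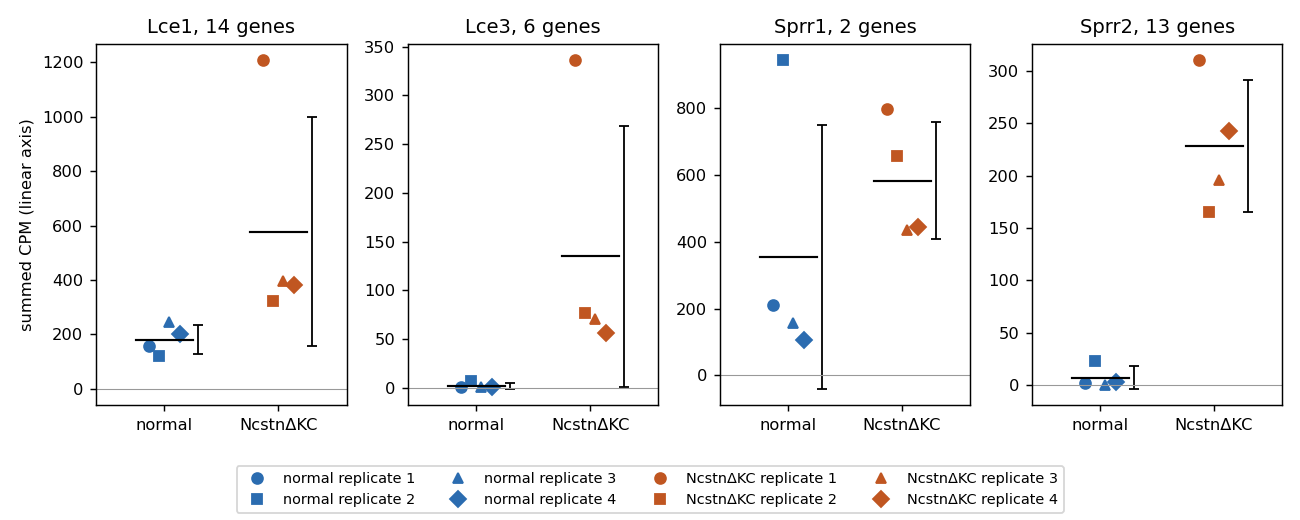
Summed CPM (linear vertical axes, which differ between panels) of the Lce1, Lce3, Sprr1 and Sprr2 genes in each library. Each symbol is 1 library, the horizontal line is the group mean and the bar beside it is ± 1 SD over 4 libraries. NcstnΔKC replicate 1 was the highest library in Lce1 (1208 CPM) and Lce3 (336 CPM), and normal replicate 2 the highest in Sprr1 (941 CPM).

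The make-up of the family transcripts shifted with these changes. In the normal libraries Lce3 genes held 0.0382% to 0.558% of all Lce and Sprr CPM, and in the NcstnΔKC libraries 4.88% to 12.4%. Sprr2 genes went from 0.128% to 2.04% in normal to 11.4% to 21.1% in NcstnΔKC skin. The shares of Lce1 (10.6% to 60.03% against 25.6% to 44.6%) and Sprr1 (31.7% to 81.5% against 29.5% to 51.7%) overlapped between the groups.

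**Figure D3:**
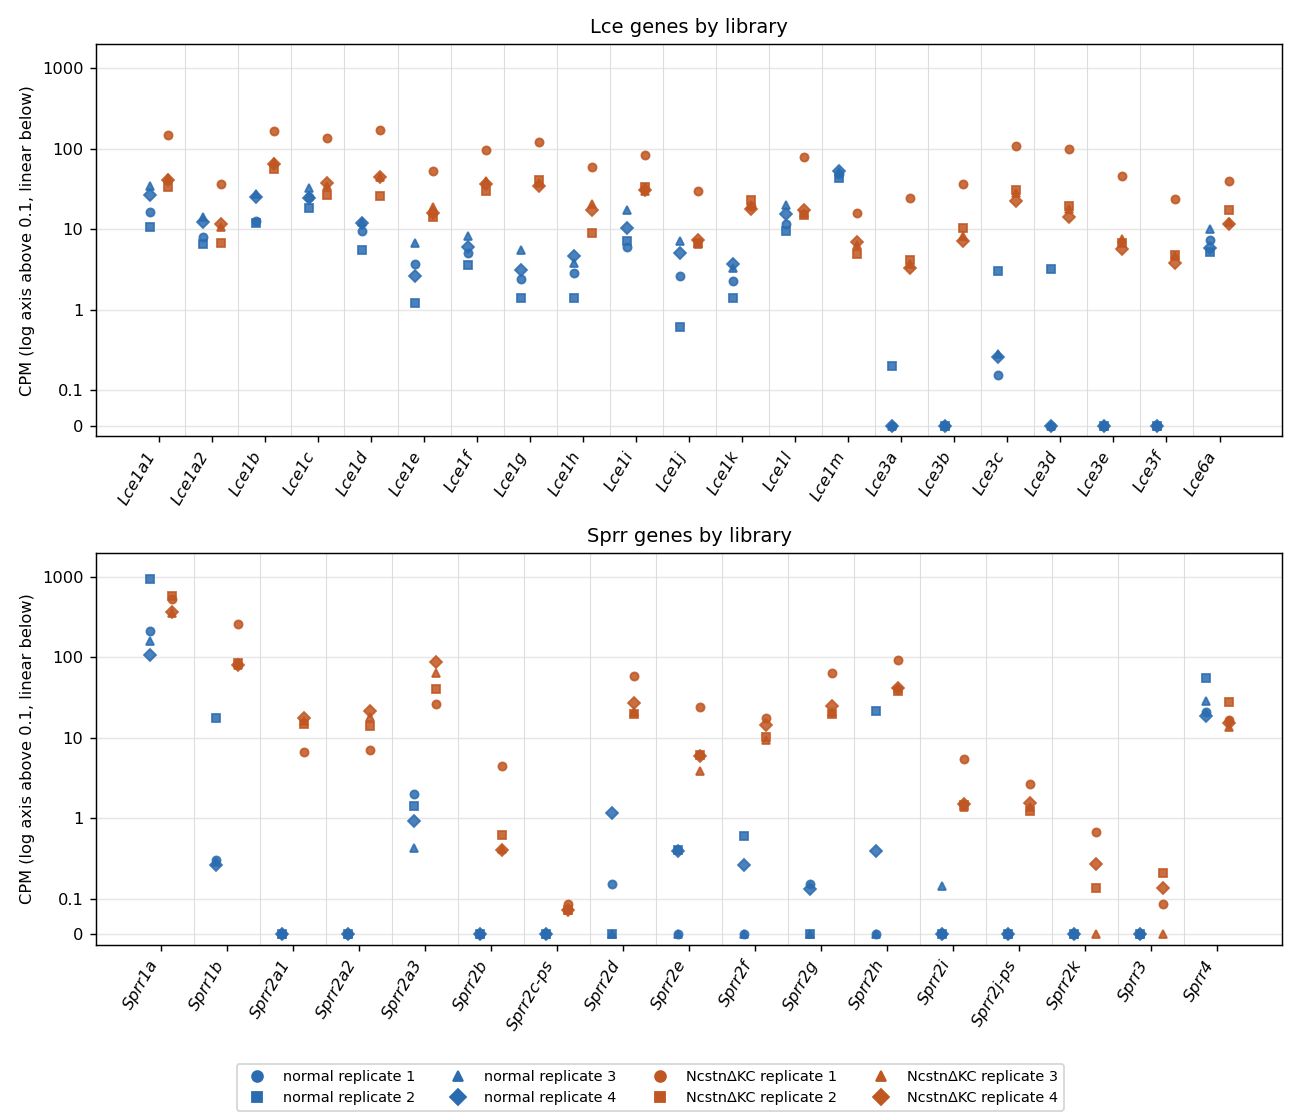
CPM of each of the 38 Lce and Sprr genes in each library (vertical axis logarithmic above 0.1 CPM and linear below). Blue symbols are the 4 normal and orange symbols the 4 NcstnΔKC libraries. The 6 Lce3 genes were at or under 3.23 CPM in every normal library, and Lce1m alone among the Lce genes lay lower in all 4 NcstnΔKC libraries.

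Most of the 6 Lce3 genes, the set known from inflamed epidermis, were near absent from normal skin and present in every NcstnΔKC library. Lce3c (ENSMUSG00000045475, 92944486 to 92945733) was at 0.152, 3.02, 0.282 and 0.261 CPM in normal replicates 1 to 4 and at 108, 30.95, 28.2 and 22.4 CPM in NcstnΔKC replicates 1 to 4. The lowest NcstnΔKC library was several times the highest normal one, and among the normal libraries replicate 2 stood highest. Its log2 fold change was 5.85 ± 0.91 (SE; edgeR, adjusted p = 0.00140), 7.64 without normal replicate 2 and 5.07 without NcstnΔKC replicate 1. Lce3d (ENSMUSG00000043472, 92957390 to 92958505) was at 0 in normal replicates 1, 3 and 4 and at 3.23 CPM in replicate 2, and at 98.0, 19.5, 17.8 and 14.04 CPM in the NcstnΔKC libraries. All of its normal counts came from the library rich in hair markers. The fitted log2 fold change was 5.80 ± 1.25 (edgeR, adjusted p = 0.00593), and 4.69 without NcstnΔKC replicate 1, while without normal replicate 2 no normal count remained.

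Lce3a, Lce3b, Lce3e and Lce3f had 1 count or none in the whole normal group. Lce3e (ENSMUSG00000074433, 92967061 to 92968281) had no normal count and was at 45.8, 6.63, 7.47 and 5.64 CPM in NcstnΔKC replicates 1 to 4. Replicate 1 carried most of it, and the other 3 libraries lay close together. Taking 3 counts over the normal group as the floor, it was at least 131-fold higher (edgeR, adjusted p = 0.00659), and at least 57.6-fold without NcstnΔKC replicate 1. On the same floor Lce3b (ENSMUSG00000042031, 92932979 to 92934097) was at least 126-fold and Lce3f (ENSMUSG00000068885, 92992226 to 92993426) at least 74.3-fold higher, and without NcstnΔKC replicate 1 these bounds were 74.3 and 38.7. Lce3a (ENSMUSG00000054325, 92925287 to 92926230) had 1 normal count, in replicate 2, and 24.4, 4.17, 3.66 and 3.29 CPM in the NcstnΔKC libraries. The ratio of its levels was 214 (95% counting interval 38.1 to 8456; edgeR, adjusted p = 0.00220), and 97.5 without NcstnΔKC replicate 1. Such bounds and intervals cover counting error only. The Lce3 genes also share sequence: 26.7% (Lce3b) to 60.3% (Lce3d) of their 31-base stretches occur in another annotated gene, mostly another Lce3 gene, so the split of reads among them is uncertain too.

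The Lce1 genes, the set known from undisturbed epidermis, were all detected in every normal library, and their changes were smaller and less uniform. Their median log2 fold change was 2.16. Lce1b (ENSMUSG00000027923, 92655650 to 92656926) was at 12.8, 11.9, 27.0 and 24.8 CPM in normal replicates 1 to 4 and 165, 55.1, 68.4 and 65.2 CPM in NcstnΔKC replicates 1 to 4. The groups did not overlap, and NcstnΔKC replicate 1 lay far above the other 3. It rose by 2.20 ± 0.42 on the log2 scale (edgeR, adjusted p = 0.00366). Lce1a1 (ENSMUSG00000057609, 92646535 to 92648307) was at 16.1, 10.7, 34.7 and 26.6 CPM against 147, 33.6, 43.5 and 40.6 CPM. Here normal replicate 3 lay above NcstnΔKC replicate 2, so the groups overlapped. Its log2 fold change of 1.58 ± 0.54 passed narrowly (edgeR, adjusted p = 0.0415) and fell to 0.83 and out of the call without NcstnΔKC replicate 1. The call was lost in 10 alternatives, among them leaving out normal replicate 1, 2 or 4 (1.51, 1.40 and 1.72) and scaling to basal keratinocyte genes (1.02, edgeR adjusted p = 0.157).

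Lce1g and Lce1k had the lowest p of the Lce1 genes. Lce1g (ENSMUSG00000027919, 92750148 to 92752338) was at 2.43, 1.41, 5.51 and 3.13 CPM in normal replicates 1 to 4 and 119.9, 41.2, 37.0 and 34.0 CPM in NcstnΔKC replicates 1 to 4. Even its lowest NcstnΔKC library was several times the highest normal one. The log2 fold change was 4.18 ± 0.56 (edgeR, adjusted p = 6.89e-04), and 3.55 without NcstnΔKC replicate 1. Lce1k (ENSMUSG00000095870, 92806291 to 92807891) was at 2.28, 1.41, 3.25 and 3.65 CPM against 19.6, 23.0, 19.7 and 17.7 CPM. Unlike most members it was level across the 4 NcstnΔKC libraries, replicate 1 included. Its log2 fold change was 2.89 ± 0.27 (edgeR, adjusted p = 1.59e-04), between 2.76 and 3.14 when any 1 library was left out. The other called Lce1 genes were Lce1d (2.87 ± 0.60), Lce1e (2.81 ± 0.58), Lce1f (3.12 ± 0.43), Lce1h (3.01 ± 0.61) and Lce1i (2.11 ± 0.45), with edgeR adjusted p from 7.93e-04 to 0.00559. Without NcstnΔKC replicate 1 the log2 fold changes of Lce1d, Lce1e and Lce1h were 1.97, 2.18 and 2.25.

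The only member called lower was Lce1m (ENSMUSG00000027912, 93017810 to 93019060), singled out here after its values were seen. It was at 48.0, 43.3, 51.5 and 52.4 CPM in normal replicates 1 to 4 and at 15.7, 4.85, 6.29 and 6.85 CPM in NcstnΔKC replicates 1 to 4. The 4 normal libraries were nearly level, and all 4 NcstnΔKC libraries lay under them without overlap, replicate 1 being the highest of its group here too. It fell by 2.54 on the log2 scale (SE 0.35; edgeR, adjusted p = 7.69e-04), and leaving out any 1 library gave -3.02 to -2.34. Per length, in FPKM (the authors' level scaled to both gene length and library, so that genes can be compared), Lce1m ranked 3 of the 38 members in normal skin (38.6 ± 4.45 FPKM, SD, n = 4) and 30 of 38 in NcstnΔKC skin (8.10 ± 4.01 FPKM). Lce1m sits apart from the other Lce1 genes, beyond the Lce3 genes at the far end of the stretch, and 0.926% of its 31-base stretches occur in another annotated gene, against 13.2% to 58.8% for the other 13 Lce1 genes.

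Within a library the level of Lce1m can be set against that of Lce1l, its nearest Lce1 neighbour. The log2 ratio of Lce1m to Lce1l CPM was 2.05, 2.18, 1.38 and 1.78 across the normal libraries and -2.32, -1.605, -1.33 and -1.33 across the NcstnΔKC libraries, in the order of their numbers. Lce1m exceeded Lce1l in every normal library and fell below it in every NcstnΔKC library. The mean difference was -3.49 (exact permutation test, two-sided, p = 0.0286 and adjusted p = 0.0381 over 4 such pairs, all chosen after their values were seen). With 4 libraries against 4 no smaller p can be reached, and any pair picked because its groups separate gives this p. The adjustment over 4 pairs does not correct for that choice. A ratio within a library does not depend on how the libraries are scaled.

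The Lce1 genes that were not called numbered 4, and all had overlapping groups. Lce1c (ENSMUSG00000042092, 92679247 to 92680918) was at 25.2, 18.5, 32.9 and 24.4 CPM in normal and 135, 26.5, 34.1 and 37.2 CPM in NcstnΔKC replicates 1 to 4, with a log2 fold change of 1.197 ± 0.50 (edgeR, adjusted p = 0.0812). Lce1l had 1.17 ± 0.57 (adjusted p = 0.127), Lce1j 1.65 ± 0.71 (adjusted p = 0.0871) and Lce1a2 0.66 ± 0.51 (adjusted p = 0.323). Without NcstnΔKC replicate 1 their log2 fold changes were lower, at 0.37, 0.19, 0.78 and -0.087 in that order. Lce6a (ENSMUSG00000086848, 92620081 to 92621660), the single Lce6 gene, was at 7.29, 5.24, 10.0 and 5.86 CPM against 39.9, 17.2, 12.2 and 11.6 CPM. The groups did not overlap, though NcstnΔKC replicates 3 and 4 were only just above normal replicate 3. Its log2 fold change was 1.499 ± 0.43 (edgeR, adjusted p = 0.0202), a call lost with limma-voom (1.30), with scaling to basal keratinocyte genes (0.92) and in the 4 libraries with Xist (0.63).

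The 2 Sprr1 genes, bridging proteins of the envelope, were unlike in normal skin. Sprr1b (ENSMUSG00000048455, 92436809 to 92438789) was at 0.304, 17.7, 0.282 and 0.261 CPM in normal replicates 1 to 4 and 262, 84.3, 80.7 and 78.9 CPM in NcstnΔKC replicates 1 to 4. Apart from normal replicate 2 the normal libraries held under 1 CPM, and no normal library reached the NcstnΔKC range. Its log2 fold change was 4.89 ± 1.22 (edgeR, adjusted p = 0.0113), 8.80 without normal replicate 2 and 4.28 without NcstnΔKC replicate 1. Sprr1a (ENSMUSG00000050359, 92483952 to 92485895) was at 210.0, 924, 157 and 107 CPM against 536, 570.2, 353 and 365 CPM. Normal replicate 2 was the highest of all 8 libraries and the other 3 normal libraries lay under the whole NcstnΔKC group. The log2 fold change was 0.39 ± 0.62 (edgeR, adjusted p = 0.639), and 1.58 (adjusted p = 0.00436) without normal replicate 2. With scaling to basal keratinocyte genes it was -0.42, where the median of all genes moved to -0.69.

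Sprr1a was the most abundant member per length in both groups, at 377 ± 402 FPKM in normal and 628 ± 149 FPKM in NcstnΔKC skin (SD, n = 4), and Sprr1b ranked 2 in NcstnΔKC skin (164 ± 102 FPKM). In normal replicates 1 to 4 Sprr1b was at 0.357, 18.2, 0.278 and 0.286 FPKM, so its rank in normal skin, 13 of 38 over 4 libraries and 20 without replicate 2, rests on that library. The log2 ratio of Sprr1b to Sprr1a CPM was -9.11, -5.69, -8.79 and -8.36 in normal and -1.03, -2.76, -2.13 and -2.21 in NcstnΔKC replicates 1 to 4. Normal replicate 2 was the highest normal library, and still below every NcstnΔKC library. The mean difference was 5.96 (exact permutation test, two-sided, p = 0.0286, adjusted p = 0.0381 over the 4 pairs). This pair too was chosen after its values were seen, so the p adds no support to the separation. No 31-base stretch of Sprr1a or Sprr1b occurs in another annotated gene, so shared sequence does not touch this ratio.

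Sprr4 (ENSMUSG00000045566, 92500263 to 92500493) was not called. It was at 20.95, 55.8, 28.7 and 18.6 CPM in normal and 16.5, 27.3, 13.5 and 15.3 CPM in NcstnΔKC replicates 1 to 4. Replicate 2 was the highest library of each group, and the groups overlapped. The log2 fold change was -0.77 ± 0.37 (edgeR, adjusted p = 0.126), and it was called lower with scaling to basal keratinocyte genes (-1.53, adjusted p = 0.0137). The log2 ratio of Sprr4 to Sprr1a CPM was -3.32, -4.05, -2.45 and -2.51 in normal and -5.01, -4.38, -4.71 and -4.57 in NcstnΔKC libraries, lower in all 4 of the latter (difference -1.59, exact permutation test, two-sided, p = 0.0286, adjusted p = 0.0381 over the 4 pairs). As the pair was chosen after its values were seen, the p adds no support to the separation. Sprr3 (ENSMUSG00000045539, 92456502 to 92458720), the gene of the oral and oesophageal lining, stayed near the floor, with 0 counts in every normal library and 1, 3, 0 and 2 counts in NcstnΔKC replicates 1 to 4, and it was not tested.

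Among the 13 Sprr2 genes, also bridging proteins, 10 were tested and all 10 lay higher in every NcstnΔKC library than in any normal library. Sprr2a1, Sprr2a2, Sprr2e, Sprr2f, Sprr2g, Sprr2i and Sprr2j-ps were under 1 CPM in every normal library. They passed the filter through the NcstnΔKC libraries alone, so for them the lack of overlap was fixed in advance. Sprr2g (ENSMUSG00000046203, 92373915 to 92375229) had 2 normal counts, 1 each in replicates 1 and 4, and 64.3, 19.7, 20.9 and 24.5 CPM in NcstnΔKC replicates 1 to 4. Replicate 1 was the highest and the other 3 were close together. The ratio was 405 (95% interval for counting 112 to 3349.8; edgeR, adjusted p = 1.30e-04), and 286 without NcstnΔKC replicate 1. Sprr2d (ENSMUSG00000042212, 92339140 to 92340873) was at 0.152, 0, 0 and 1.17 CPM in normal and 58.7, 19.7, 20.5 and 27.2 CPM in NcstnΔKC replicates 1 to 4. Its 9 counts in normal replicate 4 were nearly all that the normal group held. The log2 fold change was 6.36 ± 0.80 (edgeR, adjusted p = 5.32e-04), and the fit without normal replicate 4, with 1 normal count left, gave 8.96.

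Sprr2h (ENSMUSG00000046259, 92385685 to 92387324) was the tested Sprr2 gene that was not called. It was at 0, 21.2, 0 and 0.391 CPM in normal replicates 1 to 4 and 91.2, 38.1, 40.9 and 41.0 CPM in NcstnΔKC replicates 1 to 4. Normal replicate 2 was far above the other 3 normal libraries but still under every NcstnΔKC library. The log2 fold change was 3.40 ± 1.29 (edgeR, adjusted p = 0.0582), and 8.50 (adjusted p = 3.70e-04) without normal replicate 2. Sprr2e (5.63 ± 0.96, adjusted p = 0.00210) and Sprr2f (5.97 ± 0.64, adjusted p = 2.57e-04) were called higher on 5 or fewer normal counts, Sprr2e being at 4.72 without NcstnΔKC replicate 1 and 6.42 without normal replicate 4, and Sprr2f at 6.995 without normal replicate 2. The single normal count of Sprr2i put its ratio at 60.2 (95% counting interval 10.6 to 2397; edgeR, adjusted p = 0.00250), and 37.7 without NcstnΔKC replicate 1. Sprr2j-ps, a pseudogene with no normal count, was at least 14.6-fold higher (adjusted p = 0.00188). The 3 genes under the filter had 0 normal counts. Sprr2b had 53, 9, 6 and 6 counts in NcstnΔKC replicates 1 to 4, Sprr2k had 8, 2, 0 and 4, and the pseudogene Sprr2c-ps had 1 in each.

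In the 3 Sprr2a genes NcstnΔKC replicate 1, the highest of its group in most members, was the lowest. Sprr2a3 (ENSMUSG00000074445, 92285417 to 92291405) was at 1.97, 1.41, 0.424 and 0.912 CPM in normal replicates 1 to 4 and at 26.5, 39.8, 63.3 and 86.8 CPM in NcstnΔKC replicates 1 to 4. The NcstnΔKC libraries lay well apart, and the lowest was still far above every normal library. The log2 fold change was 5.53 ± 0.52 (edgeR, adjusted p = 1.70e-04). Sprr2a1 was at 6.71, 14.6, 16.0 and 17.7 CPM and Sprr2a2 at 7.05, 13.8, 18.1 and 21.3 CPM in NcstnΔKC replicates 1 to 4, with 0 normal counts each. The same library was the lowest in both. Shared sequence limits these values: 96.9% of the 31-base stretches of Sprr2a1, 97.8% of Sprr2a2 and 73.6% of Sprr2a3 occur in another annotated gene, mostly one another, and Sprr2a1 and Sprr2a2 share exon bases. How reads that fit several places were counted is not given in the sources used here, so the split between these 3 genes is uncertain.

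NcstnΔKC replicate 1 was the highest of its group in 28 of the 34 tested members (82.4%), against 6395 of 15684 genes (40.8%). The exceptions were Sprr2a1, Sprr2a2, Sprr2a3, Lce1k, Sprr1a and Sprr4. Over the mean of the other 3 libraries its level was 3.98 to 6.96 times for the 6 Lce3 genes and 0.397 to 0.419 times for the Sprr2a genes. The log2 ratio of Sprr2a3 to Sprr2d was -1.15, 1.01, 1.62 and 1.67 across the NcstnΔKC libraries and 3.17, 3.91, 2.81 and -0.34 across the normal ones, with no difference between the groups that passed (-1.596, exact permutation test, two-sided, p = 0.229). The sum of 27 other cornified envelope genes was likewise highest in NcstnΔKC replicate 1 (12180 against 5616 to 7925 CPM). Not all followed, as Rptn and Ivl were highest in replicate 2. Replicate 1 also differed in markers of other cells. Its sums were highest for suprabasal keratinocytes (9586 against 4510 to 8355 CPM), skeletal muscle (5613 against 617 to 2628), sebocytes, adipocytes and endothelium. They were lowest for fibroblasts (4282 against 9498 to 12255), basal keratinocytes (13138 against 15847 to 17009) and T cells. Stress keratins (Krt6a, Krt6b, Krt16 and Krt17) summed to 2182 CPM there against 6381 to 6937 in the other 3, and to 597 to 1041 in the normal libraries. Of these, Krt17 was not called (0.70 ± 0.29, edgeR, adjusted p = 0.0829). At 509 CPM in NcstnΔKC replicate 1, it lay below every normal library (541 to 837). Macrophage and dendritic cell markers (7 genes) were at 181 against 669 to 870.0 CPM (195 to 420.4 in normal), and neutrophil markers (8 genes, with Ly6g, Mpo and Elane at or near 0 in both groups) at 87.9 against 130.4 to 318 CPM (4.86 to 13.7 in normal). Of the macrophage and dendritic cell markers, Cd207 alone was highest in replicate 1 (3.36 against 0.873 to 1.23 CPM), and the others were lowest there. Cd207 was called lower in NcstnΔKC skin (-2.70 ± 0.56, edgeR, adjusted p = 0.0052), and C1qa and C1qb were called higher. The stress keratin and neutrophil sums, like most members, were higher in every NcstnΔKC than in any normal library. Their part in the members' values was not tested.

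**Figure D4:**
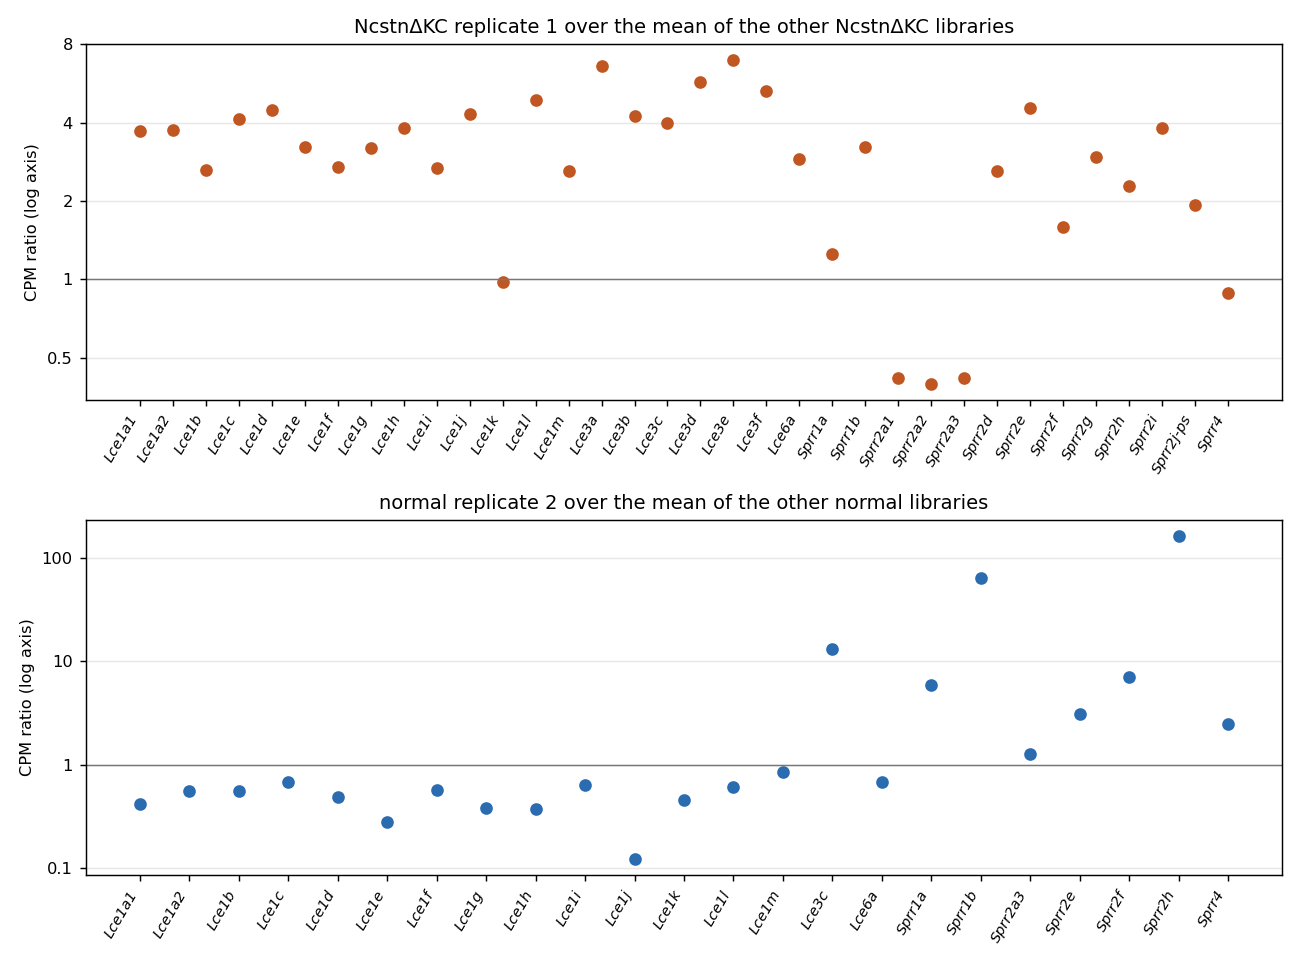
CPM in 1 library over the mean CPM of the other 3 libraries of its group (logarithmic axes, line at 1) for each tested member, with NcstnΔKC replicate 1 above and normal replicate 2 below. Members at 0 CPM in normal replicate 2, or in all other normal libraries, are left out of the lower plot. NcstnΔKC replicate 1 lay above its group in most members and below it in the 3 Sprr2a genes. Normal replicate 2 lay above its group in Sprr1a, Sprr1b, Sprr2h, Lce3c, Sprr4, Sprr2a3, Sprr2e and Sprr2f (the last 2 on 5 normal counts each). It lay below its group in Lce6a and every Lce1 gene.

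Without both NcstnΔKC replicate 1 and normal replicate 2, 27 members were called higher and 1 lower by edgeR. The libraries with Xist (2 against 2) gave 27 higher and 1 lower. The libraries without Xist, which include both libraries that stood apart, gave 0 called members (edgeR, adjusted p) among 4 genes called in all, with 29 of 34 members at an unadjusted p under 0.05, against 3921 of 15668 genes, and 31 members with a positive log2 fold change. No other tool was run on those 4 libraries.

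Along the chromosome the Sprr2 genes come first, followed by the Sprr1 genes with Sprr3 and Sprr4, then Lce6a, 13 Lce1 genes, the 6 Lce3 genes and Lce1m. The genes between the Sprr2 and Lce3 runs were mixed, with Sprr1b at 4.89 and Lce1g at 4.18, and Sprr1a, Sprr4 and Lce1a2 at 0.39, -0.77 and 0.66 and not called. Neighbours could differ widely: Lce3f, at least 74.3-fold higher, is the member nearest to Lce1m, which fell.

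**Figure D5:**
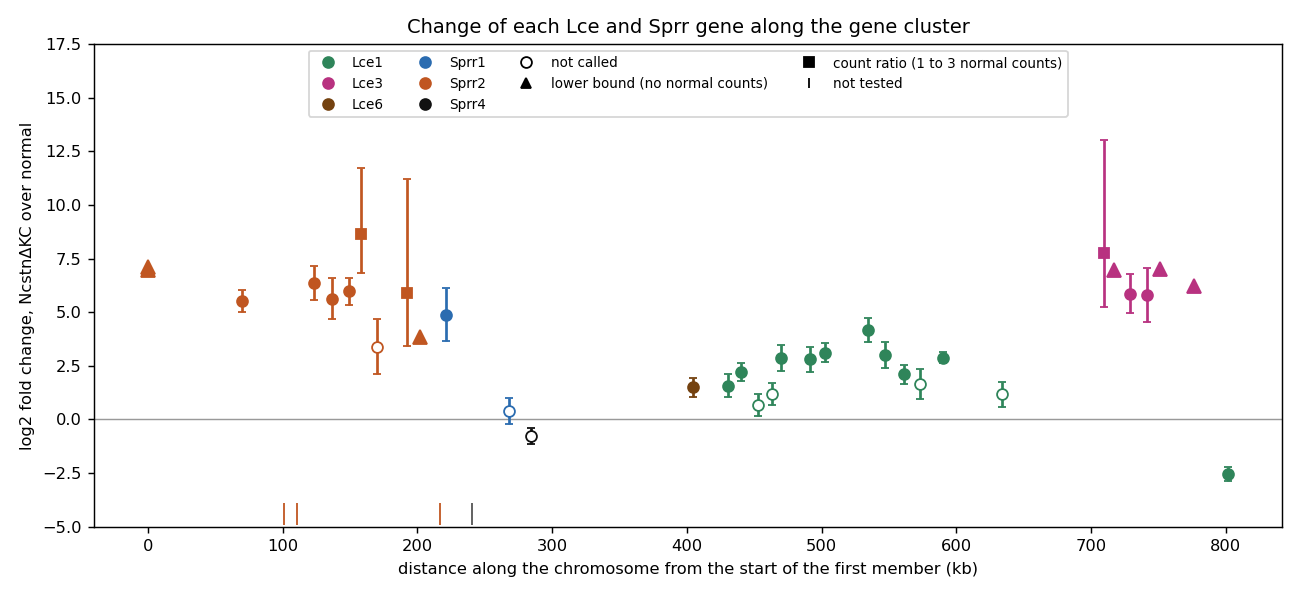
Log2 fold change of each tested Lce and Sprr gene (NcstnΔKC over normal, edgeR, circles with ± SE) against the distance of its start from that of the first member (kb). Open circles were not called, triangles are lower bounds for genes with 0 normal counts, squares are count ratios with 95% counting intervals, and ticks at the bottom are 4 genes not tested. Lce1m at the right end is the only called gene below 0, and Sprr4 at -0.77 was not called.

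The other genes of the envelope did not share 1 direction. Of 24 tested genes of a list of other cornified envelope genes, 8 were called higher and 9 lower, with a median log2 fold change of 0.15, against 21.4% and 22.7% of all genes. With scaling to basal keratinocyte genes 6 were higher and 11 lower, against 4.78% and 48.3% of all genes. Among those higher were Rptn (repetin, 3.08 ± 0.24), Pglyrp3 (a peptidoglycan recognition protein, 2.30 ± 0.25), Flg (filaggrin, 3.70 ± 0.42) and Tgm1 (the transglutaminase that crosslinks the envelope, 1.54 ± 0.18). Among those lower were Evpl (envoplakin, -0.79 ± 0.13), Ppl (periplakin, -1.43 ± 0.25), Sbsn (suprabasin, -2.31 ± 0.40) and Flg2 (filaggrin 2, -1.69 ± 0.34), with edgeR adjusted p for these 8 genes from 9.12e-05 to 0.00446. The sum of suprabasal keratinocyte markers (8 genes) overlapped between the groups, at 6649 to 13055 CPM in normal and 4509.9 to 9586 CPM in NcstnΔKC skin. Its genes went in opposite directions, with 2 called higher and 3 lower of 7 tested. Calm4 (2.61 ± 0.40) and Dsc1 (0.66 ± 0.22) were higher and Krt10 (-2.30 ± 0.44), Sbsn and Dsg1a (-0.65 ± 0.20) lower. Krt1 and Krtdap were not called.

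The S100 genes that flank the complex encode calcium-binding proteins. Of 11 tested, 5 were called higher and 3 lower (median -0.40), against 21.4% and 22.7% of all genes. S100a8 (6.09 ± 0.64) and S100a9 (4.55 ± 0.69), which neutrophils also express, S100a6 (0.86 ± 0.23) and S100a10 (0.63 ± 0.19) were among the first, and S100a1 (-1.48 ± 0.20), S100a13 (-1.91 ± 0.28) and S100a4 (-1.04 ± 0.23) were the others. With scaling to basal keratinocyte genes S100a8 and S100a9 were the 2 called higher, and 6 were called lower (S100a1, S100a4, S100a7a, S100a11, S100a13 and S100a14). Of all genes 4.78% were then called higher and 48.3% lower. S100a6 (0.14, edgeR adjusted p = 0.718), S100a10 (-0.054) and S100a16 (-0.039) lost their calls. Among 24 factors known to act on envelope genes, 10 were called higher and 3 lower (median 0.60), against 21.4% and 22.7% of all genes. Those with the lowest p were Stat3 (1.67 ± 0.14), Ahr (1.48 ± 0.18), Ehf (1.75 ± 0.26) and Elf3 (3.73 ± 0.61) among the higher genes, and Zfp750 (-1.84 ± 0.22), Gata3 (-1.01 ± 0.17) and Grhl1 (-1.01 ± 0.22) were lower (edgeR, adjusted p at most 0.00604 for these 7). With scaling to basal keratinocyte genes 4 factors were called higher (Elf3, Ehf, Stat3 and Ahr) and 6 lower (Grhl1, Gata3, Zfp750, Jun, Nfe2l2 and Trp63), with a median of -0.088. The shares of all genes were again 4.78% and 48.3%. Of the 7 AP-1 genes in that list, 2 were called higher, against 21.4% of all genes. These were Fosl2 (0.98 ± 0.23) and Junb (1.75 ± 0.46), and Fos, Fosb, Fosl1, Jun and Jund were not called (edgeR, adjusted p 0.0552 to 0.721). With basal keratinocyte scaling Fosl2 (0.35, edgeR adjusted p = 0.336) and Junb (1.10, adjusted p = 0.0665) were no longer called, and Jun was called lower (-1.51, adjusted p = 0.00719). The normal libraries were split for some of these genes. In normal replicates 1 to 4 Fos was at 690, 241, 65.1 and 62.7 CPM, Fosb at 623, 198, 13.1 and 12.6, and Jun at 832, 395, 239 and 200. In the NcstnΔKC libraries Fos was at 61.4 to 315 CPM, Fosb at 15.7 to 96.5 and Jun at 212 to 246.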

How the data were processed

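The authors deposited raw whole-number counts per Ensembl gene and FPKM values for 8 libraries in 1 table. The submitters' processing notes name TopHat2 2.0.9, TopHat and HTSeq and the builds mm10 and hg38. Strand setting, annotation release and treatment of reads that fit several places are not given in the sources used here. The deposited FPKM values were used to rank members per length and in 1 alternative.

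Groups came from the labels. Genes were filtered with filterByExpr, scaled by TMM and tested with edgeR 4.0.16 (R 4.3.3, quasi-likelihood, robust, two-sided), with Benjamini-Hochberg adjustment over all 15684 genes and a threshold of 0.05. SE is the log2 fold change over the square root of F. Where the normal group held 0 counts, the fold was bounded by setting it to 3 counts in all. The CPM ratios of 4 gene pairs were compared by an exact permutation test on the log2 scale, with 0.5 counts added. Other fits used DESeq2 1.42.0 and limma 3.58.1, with alternative scalings, filters and left-out libraries. The test was checked on simulated counts.

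Every member is accounted for. Values per library are given for the 3 most abundant and 2 lowest-p tested members of Lce1, Lce3, Sprr1 and Sprr2, for Sprr3, Sprr4 and Lce6a, and for members that a result turned on. Of other lists, the 4 lowest-p genes in each direction are named. The members, lists and alternatives were chosen with earlier results of these data known. All 27 other envelope genes were matched by name (the list gave Lor under further names). Promoters came from RefSeq (GRCm38.p6), with 34 of 38 members matched. Replicate numbers were not used as pairs. Same-numbered libraries correlated at -0.018, -0.032, -0.013 and 0.218 in their deviations from the group means, and differently numbered ones at -0.192 to 0.238. Such correlations cannot exclude a pairing, and Xist was high in replicates 3 and 4 of both groups. No libraries within a group agreed within counting noise.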

Additional observations from a re-analysis of the deposited data

Results flagged for a closer look

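In 35 of 76 groups of 4 libraries (34 genes and 4 subfamily sums in 2 conditions), 1 library lay far from the others, by a gap to its neighbour that takes up most of the group's range. Chance alone gives about 1 in 20 such groups where values are normally distributed, which low counts are not, and members share libraries, so these groups are not independent. Where 1 library alone held counts, as in normal skin for Sprr2i and Lce3a (1 count each) and Lce3d, the gap always takes up the whole range. NcstnΔKC replicate 1 was the high library in 24 of them. Its CPM, against the range of the other 3 NcstnΔKC libraries, was as follows in the Lce1 genes: Lce1a1 (147 against 33.6 to 43.5), Lce1b (165 against 55.1 to 68.4), Lce1a2 (36.2 against 6.76 to 11.7), Lce1c (135 against 26.5 to 37.2), Lce1d (172 against 26.1 to 44.9), Lce1e (52.2 against 14.01 to 18.9), Lce1f (95.2 against 29.5 to 40.2), Lce1g (119.9 against 34.0 to 41.2), Lce1i (83.6 against 29.5 to 33.3), Lce1j (29.5 against 6.50 to 7.32), Lce1l (78.5 against 14.8 to 17.3). The Lce3 genes gave Lce3a (24.4 against 3.29 to 4.17), Lce3b (36.1 against 7.05 to 10.2), Lce3c (108 against 22.4 to 30.95), Lce3d (98.0 against 14.04 to 19.5), Lce3e (45.8 against 5.64 to 7.47), Lce3f (23.5 against 3.83 to 4.78). Among Sprr genes it stood out in Sprr2e (24.3 against 3.87 to 6.15), Sprr2g (64.3 against 19.7 to 24.5), Sprr2h (91.2 against 38.1 to 41.0), Sprr2i (5.45 against 1.38 to 1.48), Sprr1b (262 against 78.9 to 84.3). Summed over the subfamily it reached 1208 CPM for Lce1 and 336 for Lce3.

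Normal replicate 2 was the high library in 9 groups. Its CPM against the other normal libraries was as follows: Sprr2h (21.2 against 0 to 0.391), Sprr1b (17.7 against 0.261 to 0.304), Sprr1a (924 against 107 to 210.0), Lce3a (0.202 against 0 to 0), Lce3c (3.02 against 0.152 to 0.282), Lce3d (3.23 against 0 to 0). The sums were 6.45 CPM for Lce3, 941 for Sprr1 and 23.6 for Sprr2. Normal replicate 3 held the only normal count of Sprr2i (0.141 CPM), and normal replicate 4 most of those of Sprr2d (1.17 CPM).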

How the results depend on the processing

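Leaving out 1 library at a time, the members called higher ran from 25 to 27 and those called lower stayed at 1. All genes called higher (3360 with all libraries) ran from 2733 to 3870 and lower from 2722 to 4124. The log2 ratios of the subfamily sums ran from 1.02 to 1.87 for Lce1, 5.24 to 9.18 for Lce3, 0.42 to 1.88 for Sprr1 and 4.56 to 6.81 for Sprr2. Scaling moved the median log2 fold change of all genes from -0.02 to 0.29 with total counts, 0.204 with FPKM and -0.69 with basal keratinocyte genes. All genes called higher and lower were then 5323 and 2224, 5344 and 2123, and 749 and 7568. With a log2 change of at least 1 they were 1597 and 2306, and in the 4 libraries without Xist 3 and 1, where 0 members were called higher and 0 lower with 2 libraries a group. Basal keratinocyte scaling left 24 members higher and 2 lower (Sprr4 joined Lce1m), turned the Sprr1 sum to -0.0675 and Sprr1a to -0.42. The replicate block, with numbers not known to pair the mice, gave 26 members higher and 2 lower. The uncalled genes Sprr1a (-0.032, libraries without Xist), Lce1l (-0.035, libraries with Xist) and Lce1a2 also changed sign, Lce1a2 to -0.087 without NcstnΔKC replicate 1 (up to 0.92 with 1 other library left out), -0.25 without it and normal replicate 2, and -0.21 in the libraries with Xist. The cause was not tested. DESeq2's Wald test gave no adjusted p for 5 members (Lce1l, Lce3a, Lce3d, Lce3e and Lce3f), so it called 2 of 6 Lce3 genes. By that test 25 members had a p under 0.05, both before and after adjustment. In these 5 genes NcstnΔKC replicate 1 was 4.90 (Lce1l) to 6.96 (Lce3e) times the mean of its companions, the highest such ratios of the tested members. Whether that library is the reason was not tested. A minimum of 1 CPM in 4 libraries kept the same genes as the filter used. Depth limits the genes with 0 to 3 normal counts to bounds and wide intervals. Shared sequence limits the split among the Sprr2a genes, among the Lce3 genes and among the Lce1 genes other than Lce1m.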

Other observations

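The stretch that holds the 38 Lce and Sprr genes also holds 12 other genes of the table, of which 8 were tested. By edgeR 2 were called higher (against 21.4% of all genes), 1 lower (against 22.7%) and 5 were not called, with a median log2 fold change of 0.41. So few calls do not set these neighbours apart from all genes. The higher ones were 2310046K23Rik (2.76 ± 0.23, adjusted p = 1.06e-04), whose counts were 2527 in the normal and 36413 in the NcstnΔKC group, and Crct1, a cysteine-rich gene beside Lce1m (2.61 ± 0.47, adjusted p = 0.00274). Ivl, which encodes the envelope scaffold involucrin and lies between the Sprr genes and Lce6a, fell by 1.28 (SE 0.34, edgeR, adjusted p = 0.0146). Kprp, a proline-rich keratinocyte gene among the Lce1 genes, had 0.25 ± 0.31 (edgeR, adjusted p = 0.532) and was not called.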
